A study of Homo sapiens with 4 samples.

Results

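The genes described here are 10 members of fibroblast growth factor (FGF) signalling, measured in RUES2 cells at day 5 of directed cardiac differentiation. They are the ligand genes FGF2, FGF8, FGF17 and FGF19, the receptor genes FGFR1, FGFR2, FGFR3 and FGFR4, and the feedback inhibitor genes SPRY2 and SPRY4. Their probes were found by annotated gene symbol, the genes having been chosen with earlier results of these data known, and they are 10 of 20046 named genes on the array. They are read by 19 of its 47322 probes. RUES2 is an established human embryonic stem cell line. Before differentiation the cells received a short hairpin RNA (shRNA) by lentivirus and were put under puromycin selection, and total RNA of their day 5 progeny was hybridised to single-colour Illumina bead arrays. The TMEM88 shRNA group held 1 array from cells with hairpin 691 and 1 from cells with hairpin 94, which target different parts of the TMEM88 locus. The control shRNA group held 2 arrays from cells with a control hairpin, called controls 1 and 2 here. All 4 arrays thus came from transduced and selected cells at the same day. The target of the control hairpin was not stated, and no untransduced cells were analysed. Nothing in the labels says that the arrays came from separate cultures, so a p-value here measures only how far these samples spread, and that spread may be technical.

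FGF ligands are secreted proteins that bind receptor tyrosine kinases together with heparan sulfate. The bound receptor passes its signal through adaptor proteins, RAS and the MAP kinases ERK1 and ERK2 to transcription factors of the ETS family. Sprouty proteins, encoded by the SPRY genes, are induced by this signal and restrain it. In the mouse embryo, Fgf8 is needed for cells to leave the primitive streak and, later, for the heart fields and the outflow tract. The study asked what loss of TMEM88, a membrane protein linked to Wnt signalling, does to cells on the way to cardiovascular progenitors. For the FGF genes the data give the level on each array and the difference between the hairpins and the control.

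Across the array, 15300 to 16516 probes were detected per array, at a detection p under 0.01, and median signals lay between 130.9 and 135.7. The TMEM88 probe had normalized levels of 9.62% with shRNA 691 and 52.9% with shRNA 94, relative to the geometric mean of the controls. The drop in TMEM88 passed the test with shRNA 691 (limma adjusted p = 0.0146) and not with shRNA 94 (limma adjusted p = 0.591) or over both hairpins (limma adjusted p = 0.187). The controls were the less alike pair. The SD over genes of the log2 difference between the 2 arrays of a group was 0.359 between the hairpins and 0.562 between the controls. Of the cardiac progenitor markers, 10 of 12 were detected well enough to test, among them ISL1 and PDGFRA, while TBX5 and TBX20 were detected on no array. With 4 arrays, the precision of all values is limited by their number.

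Among the 10 genes SPRY4 was the one that passed the test for a difference, and SPRY2 is the other Sprouty gene among them, so the sequence before the start of each is shown. Both are from RefSeq, build GRCh38.p14, minus strand, and run 5′ to 3′ over the 250 bases before an annotated start. Capitals mark each GGAA or its reverse complement TTCC, the core that ETS factors bind. The SPRY4 window is chr5:142324248-142324497. It lies inside the annotated span of the gene, whose upstream end is at 142325021, so another annotated start precedes it. The SPRY2 window is chr13:80341127-80341376 and ends directly before the annotated gene.
SPRY4: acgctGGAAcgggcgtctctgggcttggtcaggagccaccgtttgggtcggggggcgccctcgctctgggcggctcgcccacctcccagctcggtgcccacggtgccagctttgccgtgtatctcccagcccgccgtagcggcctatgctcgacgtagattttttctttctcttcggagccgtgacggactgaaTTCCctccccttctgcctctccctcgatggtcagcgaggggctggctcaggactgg
SPRY2: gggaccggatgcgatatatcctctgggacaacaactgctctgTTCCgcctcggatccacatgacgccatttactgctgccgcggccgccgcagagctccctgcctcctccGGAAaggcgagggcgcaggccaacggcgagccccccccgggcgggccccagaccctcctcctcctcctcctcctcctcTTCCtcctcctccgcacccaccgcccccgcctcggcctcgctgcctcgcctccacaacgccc
GGAA on either strand occurred 2 times before SPRY4 and 3 times before SPRY2. It is a common word, present in 92.7% of 35114 windows of this length. The longer form CCGGAA, which contains GGAA, was found 1 time before SPRY2 and not in the SPRY4 window, and 14.5% of windows hold it on either strand. CTTTG, the core bound by TCF and LEF factors of Wnt signalling, was found 1 time before SPRY4 and not in the SPRY2 window, and 42.1% of windows hold it on either strand. These matches describe letters in 1 window per gene and are not binding sites. Of the 10 genes, 6 had a window in the RefSeq table used, and SPRY2 had 3, of which the one farthest upstream is shown.

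Of the 10 FGF genes, 7 were tested and 1 passed: SPRY4 was 2.94-fold higher with the TMEM88 hairpins. FGF8 was 3.90-fold higher by its fitted difference but missed the threshold, and FGFR4 was 1.88-fold higher and also missed it. FGF2, FGFR3 and SPRY2 had overlapping groups. FGF17, FGF19 and FGFR2 were not detected on enough arrays to be tested. The test was limma on log2 normalized signals, 1 probe per gene, with Benjamini-Hochberg adjustment over all 10377 genes tested and a threshold of 0.05. In this comparison 99 genes passed as higher, 0.954% of those tested, and 205 in either direction, 1.98%. Unadjusted p-values under 0.05 were found for 3 of the 7 tested FGF genes (SPRY4, FGF8 and FGFR4) and for 18.3% of all tested genes. The TMEM88 shRNA arrays were both above both controls for 4 of the 7, and for 25.2% of all tested genes. They were both below for none of the 7 and for 24.9% of all tested genes, so that 50.2% of all tested genes had groups that did not overlap. FGFR1 is among these 4 and passed the detection filter only through the TMEM88 shRNA arrays, where it is high. In bulk RNA of this kind, more cells of a type and more RNA per cell cannot be told apart.

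**Figure D1:**
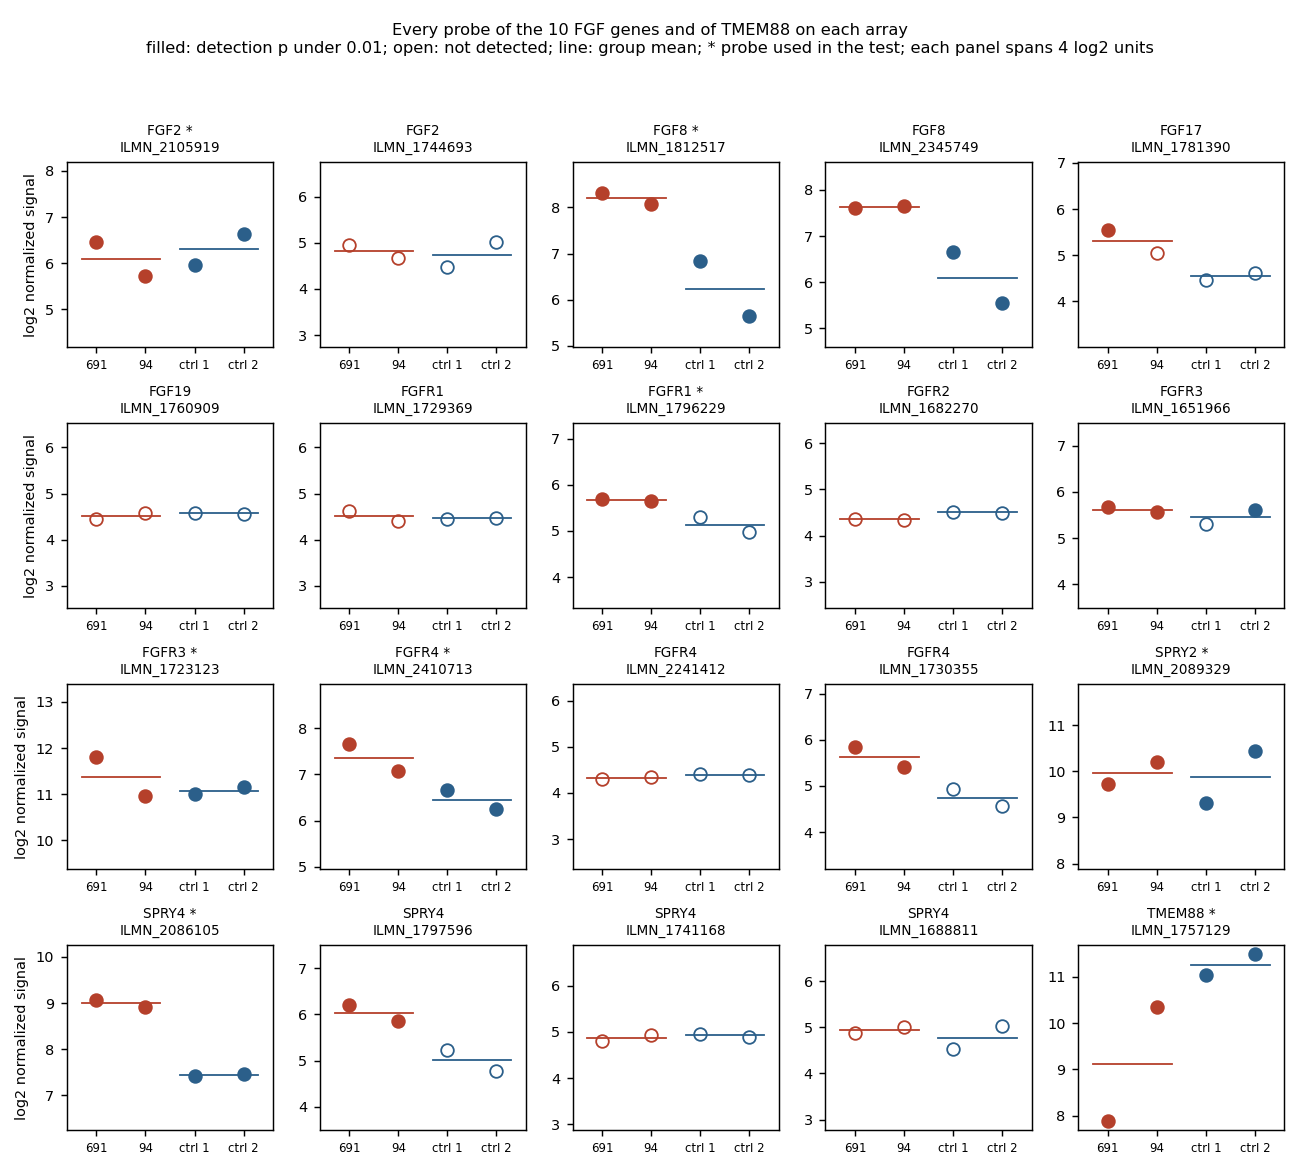
Log2 normalized signal (vertical axis, 4 log2 units in every panel) of each of the 19 probes of the 10 FGF genes and of the TMEM88 probe, on the arrays of shRNA 691, shRNA 94, control 1 and control 2. Filled points were detected, open points were not, lines are group means and an asterisk marks the probe tested. SPRY4 and FGF8 each have 2 probes with both TMEM88 shRNA arrays above both controls, while SPRY2 has controls on either side of the TMEM88 shRNA arrays.

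Among the ligands, FGF8 had the widest separation. Its brighter probe had scanner signals of 442.6 with shRNA 691 and 356.2 with shRNA 94, against 222.2 in control 1 and 156 in control 2. After normalization these were 8.31 and 8.08 with the TMEM88 hairpins and 6.83 and 5.64 in the controls, on the log2 scale. Both TMEM88 shRNA arrays lay above both controls, and the controls themselves lay 1.19 apart, far more than the 0.22 between the hairpins. The FGF8 log2 difference was 1.96 ± 0.40 (SE, 2 arrays a group, 95% interval 1.02 to 2.90), with a limma adjusted p of 0.0638. It passed when either control was left out, with a log2 difference of 2.56 without control 1 (limma adjusted p = 0.000786) and 1.37 without control 2 (limma adjusted p = 0.0205). In those fits 1453 and 548 genes of the array passed, against 205 with all arrays. FGF8 did not pass without shRNA 691 (limma adjusted p = 0.276), without shRNA 94 (0.176) or with no detection filter (0.203). It also passed, at the threshold itself, with the deposited log2 matrix (limma adjusted p = 0.05) and with an intensity trend in the variance, so the call for FGF8 depends on the processing. A separate FGF8 probe, annotated to another transcript of the gene, had signals of 317.6 and 290.9 with shRNA 691 and shRNA 94 and of 210.2 and 152.6 in the controls. Its log2 difference was 1.53 ± 0.37 (limma adjusted p = 0.0946 in a fit with 1 row per probe). The groups of this probe did not overlap either.

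FGF17, which in the mouse is closely related to Fgf8 in sequence and expressed in the gastrulating embryo, was close to background. Its only probe had signals of 160.2 with shRNA 691 and 138.8 with shRNA 94, against 116.4 and 125.3 in the controls. It was detected on the shRNA 691 array alone, with a detection p of 0.0026, and the shRNA 94 array had a detection p of 0.06753. Detection on 1 array left it out of the test. FGF19, a ligand that in the adult acts as a hormone on bile acid synthesis, had signals of 119.3 and 123.9 with the TMEM88 hairpins and 122.1 and 122.2 in the controls, none of them detected. FGF2, the ligand used in culture media to keep human embryonic stem cells undifferentiated, was detected on all 4 arrays by 1 of its 2 probes. Its signals were 206.9 with shRNA 691 and 157.3 with shRNA 94, against 169.8 and 203.9 in the controls. The groups overlapped, and the log2 difference for FGF2 was -0.21 ± 0.35 (95% interval -1.04 to 0.62, limma adjusted p = 0.801).

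Among the receptors, FGFR4 was the only one with 2 probes that put both TMEM88 shRNA arrays above both controls. FGFR4 is a receptor for FGF19 in liver and is expressed in endoderm and muscle lineages. Its brightest probe had signals of 322.6 with shRNA 691 and 232 with shRNA 94, against 209.9 and 180.6 in the controls. The FGFR4 log2 difference was 0.91 ± 0.29 (SE, 95% interval 0.22 to 1.60), with a limma adjusted p of 0.178. Without control 1 it passed (1.11, limma adjusted p = 0.0427), in a fit where 1453 genes of the array did. FGFR4 did not pass under any other alternative run, with limma adjusted p = 0.222 without control 2, 0.387 without shRNA 94 and 0.773 without shRNA 691. The FGFR4 probe of intermediate brightness was detected on both TMEM88 shRNA arrays and on neither control, and its normalized signal was at least 1.10-fold higher. For such bounds the brighter group is set against the dimmer one with each of its arrays raised to the lowest signal that counted as detected, where the probe lay under it. The remaining FGFR4 probe, annotated to a different transcript, was detected on no array.

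FGFR3 had the least change relative to its spread among the receptors tested. The brighter of its 2 probes had signals of 3660.8 with shRNA 691 and 2034.9 with shRNA 94, against 2240.6 and 2401.1 in the controls. The shRNA 691 array was the highest and the shRNA 94 array the lowest, so the hairpins stood on either side of both controls. The FGFR3 log2 difference was 0.31 ± 0.32 (95% interval -0.45 to 1.07, limma adjusted p = 0.665). A dimmer FGFR3 probe, detected on both TMEM88 shRNA arrays and on control 2, differed by 0.17 ± 0.24 (limma adjusted p = 0.766). FGFR1, whose loss in the mouse stops mesoderm from leaving the streak, was barely above background. Its brighter probe had signals of 165.4 with shRNA 691 and 155 with shRNA 94, both detected, against 144.9 and 136.6 in the controls, neither detected. It was at least 1.14-fold higher, with a fitted log2 difference of 0.54 ± 0.24 and a limma adjusted p of 0.298. The other FGFR1 probe and the only FGFR2 probe were detected on no array. The FGFR2 probe is annotated to 1 of many transcripts of that gene, so its signals of 112.5 and 107.9 with the TMEM88 hairpins and 118.9 and 119.5 in the controls say nothing of the others.

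Of the 2 feedback inhibitors SPRY4 passed and SPRY2 did not, and the difference between the genes was not tested. SPRY4 had signals of 665.4 with shRNA 691 and 554 with shRNA 94, against 285.4 in control 1 and 278.5 in control 2. On the log2 scale these were 9.07 and 8.92 with the TMEM88 hairpins and 7.43 and 7.46 in the controls. The arrays within each group were close, 0.16 apart for the hairpins and -0.03 for control 1 minus control 2, and the groups did not overlap. SPRY4 rose by 1.55 ± 0.23 in log2 units (SE, 2 arrays a group, 95% interval 1.02 to 2.09, limma adjusted p = 0.0244), which ranked it 111 of 10377 genes by p. It still passed when either control was left out and lost the call when either hairpin was left out, with limma adjusted p = 0.237 without shRNA 691 and 0.147 without shRNA 94. A fit without a control takes its spread from the TMEM88 shRNA arrays alone, and more genes of the array passed in it than with all arrays. The log2 difference of SPRY4 kept between 1.47 and 1.63 over the fits that leave out 1 array. With no detection filter SPRY4 also missed (limma adjusted p = 0.0638). With the mean of its detected probes the difference was 1.29, close to the threshold (limma adjusted p = 0.0485).

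SPRY4 had 4 probes, all annotated to the same transcript. Besides the one tested, 1 was detected, on the TMEM88 shRNA arrays only, with signals of 190.6 and 162.3 against 142.9 and 131.1 in the controls. It was at least 1.48-fold higher (fitted log2 difference 1.03 ± 0.27, limma adjusted p = 0.113 in the fit with 1 row per probe). The other 2 probes were detected on no array and differed by -0.06 and 0.16. The rise of SPRY4 therefore rests on 1 probe that passed, with 1 dim probe in the same direction.

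SPRY2, the other Sprouty gene, was detected on every array by its only probe. Its signals were 967.5 with shRNA 691 and 1210.4 with shRNA 94, against 774.9 in control 1 and 1532.8 in control 2. Both TMEM88 shRNA arrays lay between the controls, which were -1.12 apart (control 1 minus control 2). The SPRY2 log2 difference was 0.08 ± 0.40 (95% interval -0.86 to 1.02, limma adjusted p = 0.94). The interval reaches a doubling in the upward direction, so a difference of that size is not excluded by these values. Its sign turned without control 1 (-0.48) and without shRNA 94 (-0.15), and with medians scaled to be equal (-0.01).

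Each hairpin was also set against the controls by itself. Both comparisons use the same controls, and the single hairpin array is taken to vary as much as they do. Each gives the same result as the fit that leaves out the other hairpin, so these are not separate checks. None of the 7 tested FGF genes passed with either hairpin in limma, while 90 genes of the array did with shRNA 691, 0.867%, and 50 with shRNA 94, 0.482%. At an unadjusted p under 0.05 there were 3 of 7 with shRNA 691 (FGF8, FGFR4 and SPRY4), beside 8.95% of all tested genes, and 2 of 7 with shRNA 94 (FGF8 and SPRY4), beside 8.61%. SPRY4 differed by 1.63 ± 0.39 with shRNA 691 and 1.47 ± 0.39 with shRNA 94, in log2 units. FGF8 differed by 2.08 ± 0.52 with shRNA 691 and 1.85 ± 0.52 with shRNA 94. FGFR4 differed by 1.19 ± 0.41 with shRNA 691 and 0.62 ± 0.41 with shRNA 94. TMEM88 itself differed by -3.38 ± 0.41 with shRNA 691 and -0.92 ± 0.41 with shRNA 94.

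The difference between the hairpins was tested directly. None of the 7 FGF genes passed in limma, and none had an unadjusted p under 0.05, where 0% of all tested genes passed and 0.944% had such a p. The largest was FGFR3, with shRNA 691 higher by a log2 difference of 0.84 ± 0.45 (95% interval -0.19 to 1.88, limma adjusted p = 1). FGF2 followed at 0.75 ± 0.50, while SPRY4 had 0.16 ± 0.45, with an interval from -0.87 to 1.18. With 1 array per hairpin these intervals are wide and do not show that the hairpins acted alike.

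**Figure D2:**
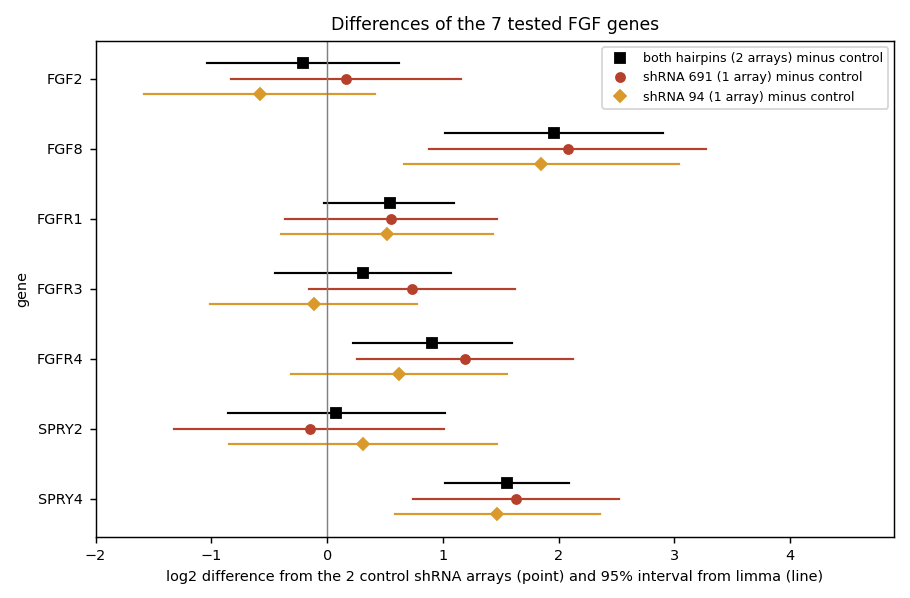
Log2 difference of the 7 tested FGF genes from the 2 control arrays (horizontal axis), with 95% intervals from limma as lines, for both hairpins together (black squares), shRNA 691 (red circles) and shRNA 94 (yellow diamonds). The intervals of SPRY4 and FGF8 lie above 0 in all 3 fits, before adjustment over the array, and those of FGF2, FGFR3 and SPRY2 include 0.

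Other genes of the pathway came from 5 lists of 87 genes in all, of which 78 had a named probe and 54 were tested. Of these, 3 rose (SHISA2, SHISA3 and ETV5) and 1 fell (FLRT3), with a median log2 difference of 0.04 beside 0.001 over all tested genes. Of all tested genes, 0.954% rose and 1.02% fell. Among 18 other FGF ligands, 6 were tested and none passed, with a median of 0.38. At an unadjusted p under 0.05 there were 4 of these 6, FGF11, FGF12 and FGF13 higher and FGF10 lower, beside 18.3% of all tested genes. FGF12 had 1.18 ± 0.33 (limma adjusted p = 0.139) and FGF13 had 0.84 ± 0.29 (limma adjusted p = 0.206). FGF11, FGF12 and FGF13 belong to the intracellular FGF-related proteins, which do not act as secreted ligands. The other tested genes of the list, FGF10, FGF18 and FGF23, had fitted log2 differences of -0.82, -0.26 and 0.15. FGF10, a ligand of the cardiac outflow region in the mouse, was detected on both controls and on neither TMEM88 shRNA array, at least 1.38-fold lower with a limma adjusted p of 0.252. It was singled out after its values were seen. Another 9 ligand genes, FGF4 and FGF9 among them, were detected on no array.

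Among 19 tested co-receptors and ligand-binding proteins, FLRT3 fell and none rose, and the median was -0.24. An unadjusted p under 0.05, in either direction, was found for 5 of the 19, beside 18.3% of all tested genes. Among these 5, FGFBP3 passed the detection filter only through the TMEM88 shRNA arrays and SULF1 only through the controls. Each was thus tested only through the group where it is high. FLRT3 encodes a transmembrane protein that in frog embryos binds FGF receptors and promotes their signal. Its tested probe had signals of 486.8 with shRNA 691 and 611.1 with shRNA 94, against 1912.1 and 1353.6 in the controls. FLRT3 fell by 1.73 ± 0.31 on the log2 scale (limma adjusted p = 0.0455), and the groups did not overlap. It lost the call when either hairpin was left out, and its other probe was detected on no array. None of 11 tested genes of the RAS-MAPK relay passed, with a median of -0.10 and 2 of 11 at an unadjusted p under 0.05, a share close to the 18.3% of all tested genes. HRAS had -0.69 ± 0.23 and the adaptor gene SHC1 had 0.67 ± 0.27 (limma adjusted p = 0.182 and 0.258).

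Of 10 genes tested on the list of other feedback inhibitors, SHISA2 and SHISA3 rose and none fell, with a median of 0.11. An unadjusted p under 0.05, in either direction, was found for 4 of the 10, beside 18.3% of all tested genes. Among these 4, DUSP4 passed the detection filter only through the TMEM88 shRNA arrays, where it is high. In frog embryos Shisa proteins hold immature FGF and Frizzled receptors in the endoplasmic reticulum, so they bear on Wnt as well as FGF signalling. Whether FGF signalling induces SHISA2 or SHISA3 was not tested, so their place on the list does not show them to be part of FGF feedback. SHISA2 had signals of 6303.2 with shRNA 691 and 6136.4 with shRNA 94, against 1734.1 and 1707.3 in the controls. It rose 3.91-fold, by a log2 difference of 1.97 ± 0.22 (limma adjusted p = 0.0117), and it lost the call when either hairpin was left out. SHISA3 rose by 3.26 ± 0.33 (limma adjusted p = 0.0068) and passed with either hairpin alone. Its other probe, detected on both TMEM88 shRNA arrays and on no control, was at least 8.39-fold higher (limma adjusted p = 0.00461 in the fit with 1 row per probe). For SHISA2 and for SHISA3, both TMEM88 shRNA arrays lay above both controls.

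The remaining genes on the list of feedback inhibitors, among them all its tested Sprouty, SPRED and DUSP genes, did not pass. Those named here were singled out after their values were seen. SPRY1, another Sprouty gene, had log2 levels of 9.96 and 10.26 with the TMEM88 hairpins and 9.29 and 9.15 in the controls, a difference of 0.89 ± 0.24 (limma adjusted p = 0.126). The Sprouty genes thus stood at 1.55, 0.89 and 0.08 for SPRY4, SPRY1 and SPRY2, of which the first passed. The phosphatase genes DUSP6 and DUSP4, whose products remove phosphate from ERK, lay on opposite sides. DUSP6 had 9.20 and 9.14 with the TMEM88 hairpins and 9.72 and 9.66 in the controls, a difference of -0.52 ± 0.22 (limma adjusted p = 0.281). DUSP4 was detected on both TMEM88 shRNA arrays and on no control, and its fitted difference of 1.12 ± 0.22 (limma adjusted p = 0.0628) comes with no bound above equality, so no fold is given. The groups did not overlap for SPRY1, DUSP6 or DUSP4, as for 50.2% of all tested genes.

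Of 8 tested transcriptional targets, ETV5 rose and none fell, with a median of 0.97. An unadjusted p under 0.05, in either direction, was found for 5 of the 8, beside 18.3% of all tested genes. ETV5 encodes an ETS factor of the PEA3 family that is induced by FGF in many embryonic tissues. Its brighter probe had signals of 1150.1 with shRNA 691 and 1166.4 with shRNA 94, against 511.2 and 486.8 in the controls. ETV5 rose by 1.49 ± 0.22 (limma adjusted p = 0.026). Its dimmer probe gave 0.78 ± 0.24 (limma adjusted p = 0.16 in the fit with 1 row per probe), and the mean of both probes did not pass. ETV5 also lost the call when either hairpin was left out. The related ETV4 had 1.04 ± 0.33, with 1 control not detected, and the cyclin gene CCND1 had 1.26 ± 0.25 (limma adjusted p = 0.179 and 0.0643). CCND1 passed with no background correction, with the deposited matrix and with an intensity trend, so its call depends on the processing. PHLDA1 had a difference of the opposite sign, -1.62 ± 0.37 (limma adjusted p = 0.0902). The controls were apart by a median of -0.93 over these targets (control 1 minus control 2), against -0.05 over the other feedback inhibitors.

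**Figure D3:**
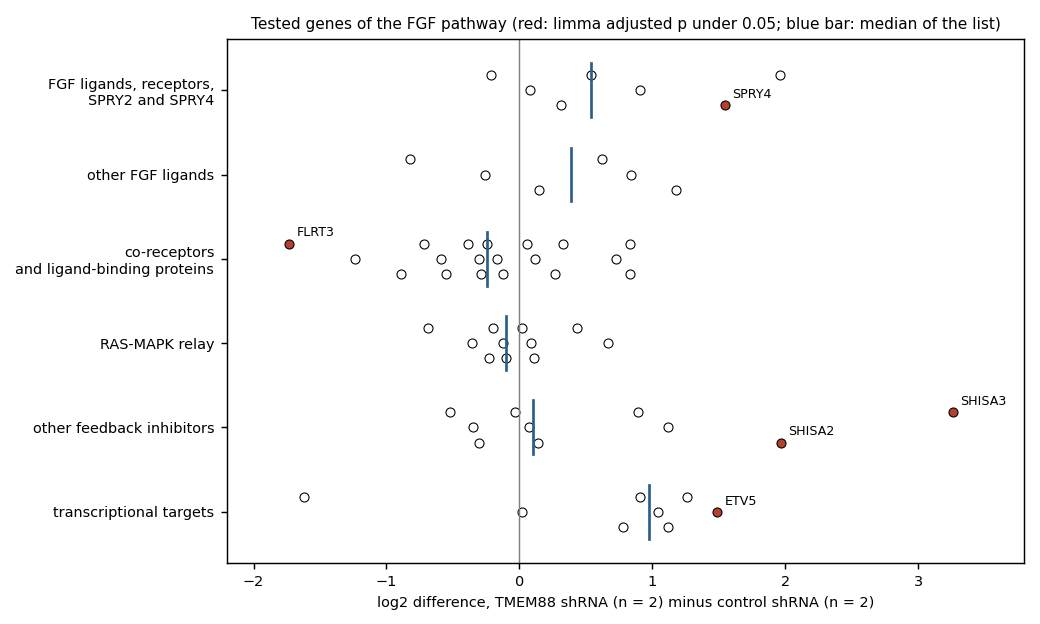
Log2 difference, TMEM88 shRNA minus control shRNA (horizontal axis, n = 2 arrays per group), of each tested gene of the 10 FGF genes and of the 5 pathway lists (rows). Red points passed (limma adjusted p under 0.05) and blue bars are list medians. SPRY4, SHISA2, SHISA3 and ETV5 lie to the right and FLRT3 to the left.

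**Figure D4:**
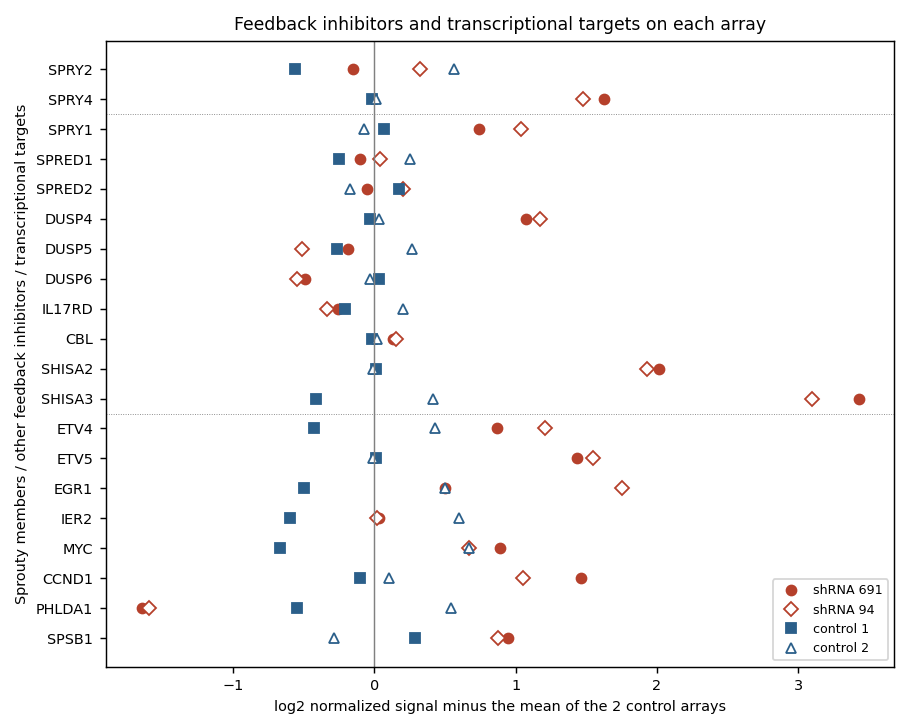
Log2 normalized signal minus the mean of the 2 control arrays (horizontal axis) for SPRY2, SPRY4, the other feedback inhibitors and the transcriptional targets (rows), with 1 symbol per array. SPRY4, SHISA2 and ETV5 have close controls and both TMEM88 shRNA arrays above them, while SPRY2, IER2, MYC and PHLDA1 have controls that lie far apart.

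The genes whose pattern over the 4 arrays was most like that of SPRY4 were TESC, ECHDC3 and CSPG4. Their distances, taken as Euclidean distance of log2 values centred on each gene's own mean, were 0.0686, 0.106 and 0.125. Their log2 differences were 1.51 ± 0.23, 1.48 ± 0.23 and 1.49 ± 0.22. A pattern over 4 arrays in 2 groups is matched by many genes.

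Markers of other cell types also differed between the groups. For comparison, 0.954% of all tested genes rose and 1.02% fell. Of 10 genes of the primitive streak and nascent mesoderm, 5 were tested, 2 of them only through the TMEM88 shRNA arrays, and EOMES and MESP1 rose. The summed normalized signal of the 5 tested was 4032 to 5598 on the TMEM88 shRNA arrays and 579 to 720 on the controls. Such sums add linear signals over the tested genes of a list, so they are set mostly by its brightest genes. TBXT, MESP2, TBX6 and MSGN1 were detected on no array. All 8 definitive endoderm markers were tested, 2 of them only through the TMEM88 shRNA arrays, and CXCR4 rose, with sums of 3302 to 3610 with the TMEM88 hairpins and 895 to 1504 in the controls. GATA4, which is also on the cardiac progenitor list, lay the other way within the endoderm list, with -1.17 ± 0.44 and groups that did not overlap (limma adjusted p = 0.232). Of 8 paraxial mesoderm markers 4 were tested, 1 of them (TCF15) only through the TMEM88 shRNA arrays, and DLL3 and FOXC2 rose, with sums of 1547 to 2229 with the TMEM88 hairpins and 600 to 632 in the controls, while TBX6, MSGN1, MEOX1 and PAX3 were detected on no array.

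Of 6 neural markers 2 were tested and OTX2 rose (sums 1306 to 1477 with the TMEM88 hairpins and 770 to 791 in the controls), while SOX1, PAX6, ZIC1 and LHX2 were detected on no array. None of 3 tested endothelial markers passed (sums 2119 to 3102 with the TMEM88 hairpins and 668 to 1042 in the controls), and PECAM1, CDH5, ERG and TAL1 were detected on no array. None of 5 tested pluripotency markers passed (sums 10559 to 14933 with the TMEM88 hairpins and 9713 to 9911 in the controls), and NANOG and LEFTY1 were detected on no array. LIN28A was the brightest pluripotency marker, at log2 levels of 13.4 with shRNA 691, 12.89 with shRNA 94, and 12.87 and 12.86 in the controls. Of 10 tested cardiac progenitor markers HAND2, MEF2C and PDGFRA fell and none rose, beside 1.02% of all tested genes that fell. MEF2C passed the detection filter only through the controls, where it is high, and was at least 3.14-fold lower. HAND2 was detected on 1 of the TMEM88 shRNA arrays. The cardiac progenitor sums were 9321 to 10014 with the TMEM88 hairpins and 8356 to 12392 in the controls. The part of these cell types in the differences of the FGF genes was not tested.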

How the data were processed

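The deposited scanner table holds, per the file headers, linear signal intensities of probes, 1 column per array, each followed by detection p-values. A deposited matrix gives the arrays' values on the log2 scale. They lay within 0.158 of a quantile normalization of the log2 signal (r of at least 0.999 with each array's own signal), with a median of 7.02 on every array and no centring of genes. How they were made was not stated. Per the submitters' processing notes, lumi and limma 3.12.3 were used, with no role stated.

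The background correction and quantile normalization were those of neqc (offset 16, negative controls inferred from the detection p-values) in limma 3.58.1 in R 4.3.3. Probe names came from the platform annotation, updated by gene ID: 30113 probes had 1 symbol, 8 several and 17201 none, and 30074 matched the RefSeq gene table of GRCh38.p14. Each gene was tested by its brightest probe that 2 or more of the 4 arrays detected (detection p under 0.01), with lmFit and eBayes (2 residual and 4.84 prior degrees of freedom). Single hairpins came from a 3-group fit with 1 residual degree of freedom. Differences are TMEM88 shRNA minus control shRNA. The fit was tested on simulated data.

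Genes named are all 10 FGF genes, TMEM88, called genes of the pathway lists (or the 2 largest differences where none was called), the 3 genes nearest to each called member, and a few chosen after their values were seen, as stated. The members and lists were chosen with earlier results of these data known. Arrays carry different codes in their titles and no slide or batch is given. Alternatives varied the background correction, normalization, source of values, detection filter, probes per gene, variance model, threshold and arrays. Figures were drawn with matplotlib 3.10.9.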

Additional observations from a re-analysis of the deposited data

How the results depend on the processing

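With all 4 arrays, SPRY4 kept its direction under every alternative run, at log2 differences of 1.09 to 1.55, and among these it missed the threshold with no detection filter (limma adjusted p = 0.0638). Of all tested genes, 1.98% passed in the main fit and 1.86% with the deposited matrix. An intensity trend gave 2.78%, and an adjusted p under 0.10 gave 4.32%. FGF8 was added with the deposited matrix, with an intensity trend and at an adjusted p under 0.10. The count of FGF genes that passed, 1, became 2 in each. It became 0 with no detection filter. It ranged from 0 (with either hairpin left out) to 3 (without control 1, with FGFR4 and FGF8 added) over the fits that leave out 1 array, and was 2 without control 2. The count of pathway genes, 4, became 0 with no detection filter and 8 at an adjusted p under 0.10, and ranged from 1 to 17 with 1 array left out. Over all genes the count of 205 became 19 with no detection filter and 448 at an adjusted p under 0.10, and ranged from 50 (without shRNA 691) to 1453 (without control 1), with 90 without shRNA 94 and 548 without control 2. A fit without a control takes its spread from the TMEM88 shRNA arrays alone. The difference of SPRY2 turned to -0.01 with medians scaled to be equal, and ranged from -0.48 to 0.64 with 1 array left out. FGF2 ranged from -0.58 to 0.16 and FGFR3 from -0.11 to 0.73 on these terms. No FGF gene passed with a single hairpin, or between hairpins, under any alternative run with all arrays. Single hairpins against 1 control leave no residual degrees of freedom and gave values with no test. No paired analysis was possible because the arrays carry no shared number. Signals near background limit FGF17, FGFR1 and the dimmer probes.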
